A study of Mus musculus with 4 samples.

Results

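Fos, Fosb, Jun, Junb, Jund, Hspa1a, Hspa1b, Dnajb1, Dusp1 and Ppp1r15a were described cell by cell in T cells from the pancreatic islets of NOD mice. These 10 genes were taken by name, and all 10 were found among the 27998 genes of the count tables. The mice were female and pre-diabetic, and were sampled at 16 weeks or at 8 weeks of age. NOD is an inbred strain in which T cells infiltrate the islets and most females become diabetic with age; the labels list no transgene and no treatment. Live cells that stained for TCR beta were sorted from the islets and loaded on a droplet platform that reads the 5' end of each transcript, so the sort takes in conventional, regulatory and CD8 T cells together. There was 1 RNA library per age, and the labels do not say how many mice were pooled in each. A difference between ages is therefore a difference between 2 libraries, in which age, mice and preparation cannot be told apart, and no p-value could be computed.

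AP-1 is a transcription factor made of a pair of leucine zipper proteins, one of the Jun family (Jun, Junb, Jund) and a partner that is often from the Fos family (Fos, Fosb). In T cells, antigen receptor and costimulatory signals reach it through MAP kinases, and Fos is the textbook immediate early gene, transcribed within minutes from a promoter that is already loaded. Hspa1a and Hspa1b encode the inducible form of the Hsp70 chaperone, and Dnajb1 encodes its Hsp40 co-chaperone; all are classical targets of the heat shock factor HSF1, which is released when unfolded proteins accumulate. Dusp1 encodes a phosphatase that switches off MAP kinases, and Ppp1r15a encodes GADD34, which directs a phosphatase to eIF2 alpha and lets translation resume after stress. Both gene groups are also known to respond to the handling of tissue during cell isolation. The time between islet harvest and cell lysis is not given for either library.

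The proximal promoters of 5 members are shown, those in which an exact match to either of 2 stress or signal response motifs was found. Each line is the 160 bases upstream of the transcription start in RefSeq on GRCm38.p6, written 5′ to 3′ on the gene's strand. Capitals mark a pair of inverted heat shock units, GAANNTTC, or a full cyclic AMP response element, TGACGTCA, the sequence on which heterodimers of Jun and ATF proteins are known to bind.
Hspa1a (chr17:34972157-34972316, minus strand): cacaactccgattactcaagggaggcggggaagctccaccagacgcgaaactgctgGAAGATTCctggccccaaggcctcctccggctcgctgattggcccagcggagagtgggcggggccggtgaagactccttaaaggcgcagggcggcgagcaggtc
Hspa1b (chr17:34959239-34959398, minus strand): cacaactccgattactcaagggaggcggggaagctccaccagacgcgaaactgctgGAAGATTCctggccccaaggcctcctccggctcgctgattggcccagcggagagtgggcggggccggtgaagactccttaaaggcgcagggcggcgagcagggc
Jun (chr4:95052223-95052382, minus strand): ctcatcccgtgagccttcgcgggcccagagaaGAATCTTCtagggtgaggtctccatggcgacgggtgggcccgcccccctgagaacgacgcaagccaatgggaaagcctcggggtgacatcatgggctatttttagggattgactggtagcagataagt
Dusp1 (chr17:26508473-26508632, minus strand): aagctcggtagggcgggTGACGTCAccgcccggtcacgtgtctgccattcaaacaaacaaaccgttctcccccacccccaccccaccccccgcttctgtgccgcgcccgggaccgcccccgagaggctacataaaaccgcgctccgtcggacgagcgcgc
Ppp1r15a (chr7:45526269-45526428, minus strand): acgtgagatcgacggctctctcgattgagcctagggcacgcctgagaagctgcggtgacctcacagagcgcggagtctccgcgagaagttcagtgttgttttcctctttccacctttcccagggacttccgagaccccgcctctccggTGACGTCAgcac

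The Hspa1a and Hspa1b windows were identical at 159 of 160 bases, and in both the GAANNTTC match began 104 bases upstream of the start. The Jun window held the same motif 128 bases upstream. Dusp1 held TGACGTCA 143 bases upstream and Ppp1r15a held it 12 bases upstream. Both strands were searched, and neither motif overlapped the other in these windows. Among 32851 mouse promoter windows of the same length, 4.21% held GAANNTTC and 1.39% held TGACGTCA. The windows of Fos, Fosb and Junb and both windows of Dnajb1 held no exact match to either motif. Further signal response motifs, the AP-1 element TGACTCA and the CArG box, were searched for and had no exact match in these windows or in those shown. They were held by 3.03% and 0.965% of all promoter windows of this length. CCAAT and TATA boxes were searched for too and are not marked. The RefSeq window of Jund (chr8:70697579-70697738) ends upstream of the annotated mm10 start of the gene at 70698949, so nothing was read from it. A match is a description of the letters and not a site shown to be bound.

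The gene bodies bear on how the counts can be read. Hspa1a (chr17:34969190-34972156) and Hspa1b (chr17:34956436-34959238) are neighbouring single-exon genes on the minus strand of chromosome 17 in the mm10 annotation. Of all 50-base windows of its transcript, Hspa1a shared 58.8% with Hspa1b, and 69.3% within the first 300 bases, where a 5' library reads. How UMIs from shared stretches were divided between these near-identical copies is not given in the sources used here, so their levels are uncertain one by one and their sum is the safer measure. Jun, Junb, Jund, Hspa1a, Dusp1 and Ppp1r15a overlap an annotated gene on the other strand that is also in the count tables (Junos, Prdx2, Gm11175, Gm20481, Ergic1 with Gm8225, and Tulp2). Whether counting used the strand is not stated.

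Barcodes were kept at a minimum of 500 genes and a maximum of 10% mitochondrial UMIs, which left 1934 of 2107 at 16 weeks and 1875 of 2043 at 8 weeks, and 5 barcode sequences occurred in both libraries. The median depth of the kept cells was 2930 UMIs at 16 weeks and 2975 at 8 weeks. An acinar cluster (56 and 38 cells) and a B cell cluster (3 and 8 cells) were left out, which gave 1875 T cells at 16 weeks and 1829 at 8 weeks. A UMI of Cd3d, Cd3e or Cd3g was found in 99.9% of the 16-week and 99.8% of the 8-week T cells, as the TCR beta sort would give. The left-out acinar cluster, named from its leading pancreatic enzyme genes, also had such a UMI in 56 of 56 cells at 16 weeks and 34 of 38 at 8 weeks, so its barcodes carried T cell transcripts too. Cells were placed by the UMIs of Cd4, Cd8a, Cd8b1 and Foxp3. Conventional Cd4-gated cells, with Cd4 and neither Cd8 nor Foxp3, numbered 556 at 16 weeks and 578 at 8 weeks. There were 161 and 181 regulatory Cd4-gated cells, which had a Foxp3 UMI or lay in a regulatory cluster, and 316 and 294 Cd8-gated cells. Cells with no lineage UMI, called ungated, numbered 755 and 697 and were shallower, with a median of 2530 UMIs at 16 weeks and 2462 at 8 weeks. In every class the level of a gene is given as CPM, the sum of its UMIs scaled to a common total of the class, with an exact Poisson interval of 95% that covers counting error only.

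All 10 genes were counted in islet T cells of both libraries, and in conventional Cd4-gated, regulatory, Cd8-gated and ungated cells every one of them had a higher CPM at 16 weeks than at 8 weeks. In conventional Cd4-gated cells Fos had a level of 490 CPM (461 to 520) in the 16-week library against 308 CPM (287 to 330) in the 8-week library. Jun had 612 CPM in 16-week against 388 CPM in 8-week cells. Junb, the Jun family member that also acts in T helper differentiation, had 1095 CPM in 16-week against 781 CPM in 8-week cells. The intervals of the 2 libraries did not overlap for any of these 3 genes. Jund, the Jun gene that is expressed in resting cells, had 251 CPM at 16 weeks and 197 CPM at 8 weeks, which was the smallest ratio of the AP-1 genes. Fosb was counted rarely, with 84 UMIs at 16 weeks and 63 UMIs at 8 weeks, and gave 38.5 CPM (30.7 to 47.6) at 16 weeks and 23.7 CPM (18.2 to 30.3) at 8 weeks. The 2 intervals of Fosb were separated by a narrow margin.

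The heat shock genes moved with the AP-1 genes. Hspa1b had 1347 CPM in conventional Cd4-gated cells at 16 weeks and 878 CPM at 8 weeks. Its neighbour Hspa1a had 342 CPM in 16-week against 243 CPM in 8-week cells, and their co-chaperone Dnajb1 had 452 and 288 CPM. Dusp1 gave the largest age ratio of the 10 genes, with 376 CPM at 16 weeks and 202 CPM at 8 weeks. Ppp1r15a had 251 CPM at 16 weeks and 144 CPM at 8 weeks. Dusp1 and Ppp1r15a were thus higher in the library in which the AP-1 genes were higher.

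**Figure D1:**
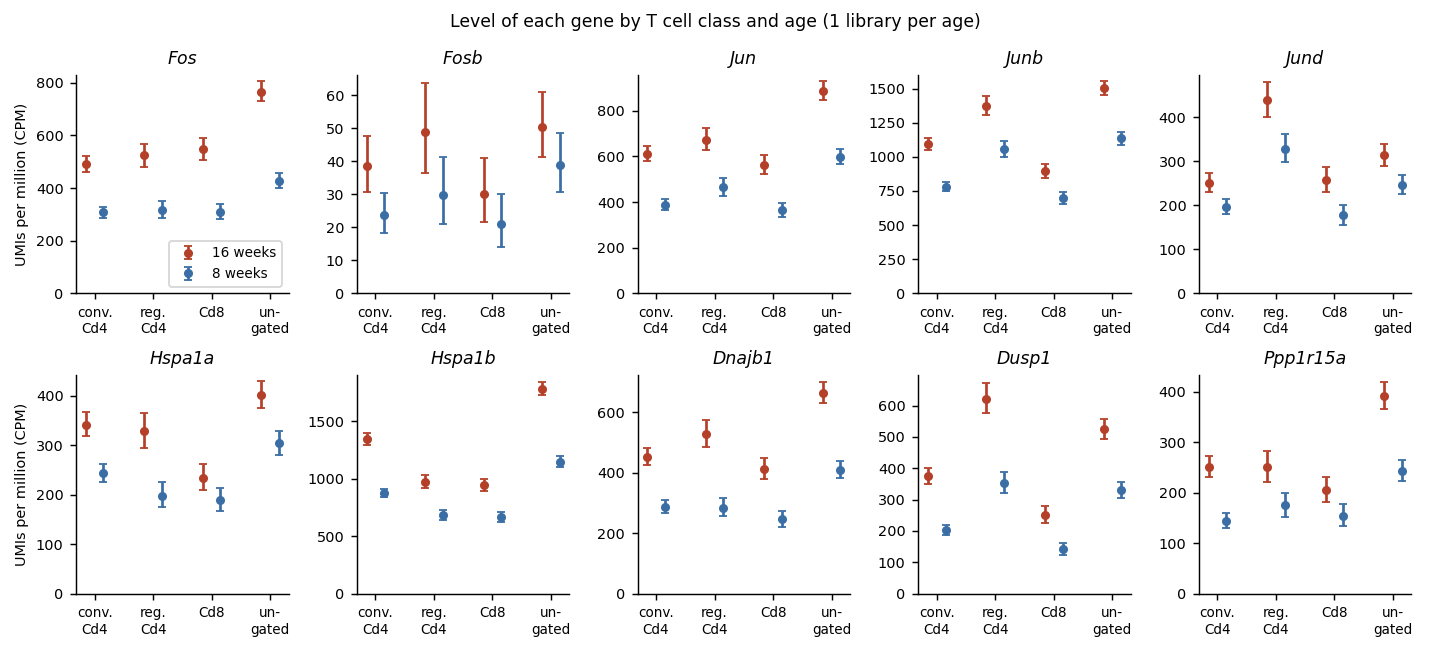
CPM of each gene (y axis, from 0) in conventional Cd4-gated, regulatory Cd4-gated, Cd8-gated and ungated T cells, with 16 weeks in red left of 8 weeks in blue; bars are exact Poisson intervals of 95% over summed UMIs, with 1 library per age. Every red point lies above its blue neighbour, and ungated cells hold the highest Fos, Jun, Junb, Hspa1b and Ppp1r15a levels.

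As log2 ratios of 16 over 8 weeks with 0.5 UMIs added to each sum, Dusp1 reached 0.89 (0.73 to 1.05), Ppp1r15a 0.80 (0.61 to 1.00) and Fosb 0.70 (0.21 to 1.19). Fos was at 0.67, Jun at 0.66, Dnajb1 at 0.65 and Hspa1b at 0.62. These 7 genes had a log2 ratio of 0.5 or more, as did 5.77% of the 6928 genes with 50 or more UMIs in these cells. Junb and Hspa1a, both at 0.49, and Jund, at 0.35, lay under that fold. The median over all genes tested was -0.06, so all 10 members lay above the median gene of the same cells, and 7.38% of genes were lower by the fold. The summed UMIs of the AP-1 genes gave 0.55 (0.49 to 0.61), from 5429 UMIs at 16 weeks and 4509 at 8 weeks. The summed UMIs of the heat shock genes gave 0.60 (0.54 to 0.67).

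Cd8-gated cells showed the same direction for every member. Fos had 547 CPM at 16 weeks and 309 CPM at 8 weeks, Dusp1 251 and 141 CPM, and Dnajb1 413 and 246 CPM, which gave log2 ratios of 0.82, 0.83 and 0.74. With Jun (0.63), Jund (0.53), Hspa1b (0.51) and Fosb (0.51), 7 members had a ratio of 0.5 or more, against 4.72% of 5169 genes. The interval of Fosb (-0.21 to 1.26) included 0. In regulatory Cd4-gated cells 8 of the 10 members passed the fold, against 7.00% of 5014 genes, with Dnajb1 highest at 0.89 (527 CPM at 16 weeks, 284 CPM at 8 weeks). Junb (0.38) and Jund (0.42) were the 2 that did not. In ungated cells the count was 6 of 10, against 4.14% of 6515 genes. The ungated class cannot be assigned to a lineage, since a cell with few UMIs can miss the Cd4 or Cd8 transcript.

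Expression clusters, made without the members and without the other early response and heat shock genes, gave the direction again. Of the 8 clusters with 50 or more cells at each age, Fos, Fosb, Jun, Junb, Jund, Dnajb1, Dusp1 and Ppp1r15a were higher at 16 weeks in all 8. Hspa1a and Hspa1b were higher in 7 of the 8. The exception was the proliferating cluster, where Hspa1b had 267 CPM at 16 weeks and 294 CPM at 8 weeks. These counts go by sign alone. In the proliferating cluster the AP-1 sum had a ratio of 0.08 (-0.02 to 0.18) and Junb 0.02 (-0.13 to 0.16). Of all members, only Ppp1r15a (0.57, 0.19 to 0.94) had an interval there that left out 0. In some other clusters single members also had intervals that included 0. In the follicular helper cluster the ratio was 1.00 for Jun (545 CPM at 16 weeks, 272 CPM at 8 weeks) and 0.84 for Hspa1b (1262 and 703 CPM). An unnamed cluster with Cd8b1 and Cd8a among its 10 leading genes had the largest ratio of Fos, 1.31 (745 CPM at 16 weeks, 300 CPM at 8 weeks). The left-out acinar cluster went the other way for some members, on 56 cells at 16 weeks and 38 at 8 weeks. Fos had 524 CPM in its 16-week and 779 CPM in its 8-week cells (-0.57, -0.95 to -0.19), Dusp1 had a ratio of -0.44 (-0.93 to 0.04) and the AP-1 sum -0.15 (-0.31 to 0.01). Its heat shock sum had a ratio of 0.62 (0.39 to 0.85). With the left-out clusters kept, the age ratio of the AP-1 sum was 0.53 in conventional Cd4-gated cells and that of the heat shock sum 0.60, and Fos was at 0.63.

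The proliferating cells stood at the low end for most members. Of the clusters with 50 or more cells at each age, their cluster was lowest in Fos (177 CPM at 16 weeks, 150 CPM at 8 weeks), Jun (179 and 161 CPM), Hspa1a (75.3 and 92.1 CPM) and Hspa1b. They were also the deepest cells, with a median of 14579 UMIs over both libraries, and they made up 3.73% of T cells at 16 weeks and 6.40% at 8 weeks. Junb, at 599 CPM in 16-week and 593 CPM in 8-week cells, was also at its lowest there. At the upper end, an unnamed cluster led by Itgb1 and Gna15 had 1904 CPM of Junb at 16 weeks and 1494 CPM at 8 weeks, and 956 and 535 CPM of Dnajb1. The interferon-responding cluster was close to it at 16 weeks, with 3981 CPM of the AP-1 sum against 3960 CPM in the Itgb1 cluster.

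Depth itself ran with the levels. When the conventional Cd4-gated cells of the 16-week library were split by their UMIs into 3 ranges of equal size, Jun had 980 CPM in the shallowest, 861 CPM in the middle and 385 CPM in the deepest range. In the 8-week library the series was 721, 574 and 242 CPM. The deepest range held 14.5% proliferating cells at 16 weeks and 20.7% at 8 weeks, so depth and cell cycle moved together. Within each range, Jun was higher in the 16-week library. With every cell thinned to the same 1700 UMIs, the age ratio in conventional Cd4-gated cells was 0.41 for the AP-1 sum and 0.57 for the heat shock sum, against 0.55 and 0.60 before thinning.

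Within a library, Cd8-gated cells had less of the heat shock genes than conventional Cd4-gated cells. By summed UMIs of these gates they had nearly as much of the AP-1 genes. The Cd8-gated over conventional Cd4-gated log2 ratio of the heat shock sum was -0.42 (-0.50 to -0.35) at 16 weeks and -0.36 (-0.44 to -0.27) at 8 weeks. Hspa1b had 948 CPM in Cd8-gated and 1347 CPM in conventional Cd4-gated cells at 16 weeks, and 665 and 878 CPM at 8 weeks. For the AP-1 sum the ratio was -0.12 at 16 weeks and -0.11 at 8 weeks, with Fos at 0.16 and 0.01. The AP-1 gap depended on the processing. It was larger at 16 and at 8 weeks with lineages taken from clusters, where the heat shock gap was larger too. At 8 weeks it was also larger in thinned cells and with each cell given equal weight. Dusp1 was lower in Cd8-gated cells in both libraries, at -0.58 (16 weeks) and -0.52 (8 weeks). At 16 weeks Hspa1a, Hspa1b and Dusp1 were lower in Cd8-gated cells by 0.5 or more, as were 9.88% of 6002 genes. At 8 weeks Dusp1 was the 1 member lower by 0.5 or more, against 10.3% of 6432 genes, so that count is near the share of all genes. Within naive-gated cells, a range set by marker UMIs, the heat shock ratio was -0.35 at 16 weeks and -0.64 at 8 weeks, and within effector-gated cells -0.83 and -0.20.

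Regulatory cells had more Jund and Dusp1 than conventional Cd4-gated cells. Jund was higher in regulatory than in conventional Cd4-gated cells by a log2 ratio of 0.81 (0.63 to 0.99) at 16 weeks, with 439 against 251 CPM. At 8 weeks the ratio was 0.74 (0.55 to 0.93), with 329 against 197 CPM. Dusp1 was higher by 0.73 at 16 weeks and 0.81 at 8 weeks, with 622 against 376 CPM in the 16-week library. Junb was higher by 0.33 and 0.43, whereas Fos differed by 0.10 and 0.04, with intervals that included 0. Hspa1b ran the other way, at -0.46 and -0.36. Hspa1a had 328 CPM in regulatory against 342 CPM in conventional Cd4-gated cells at 16 weeks, and 198 against 243 CPM at 8 weeks. Dnajb1 was higher in regulatory cells at 16 weeks, with 527 against 452 CPM, and close at 8 weeks, with 284 against 288 CPM. The heat shock sum was 1833 against 2141 CPM at 16 weeks and 1166 against 1408 CPM at 8 weeks. Jund and Dusp1 were the members past the fold upwards in both libraries, against 15.5% of 5945 genes at 16 weeks and 12.1% of 6411 at 8 weeks. Such a count is near the share of all genes and is not read as a result about the members. The median over all genes tested was 0.11 at 16 weeks and 0.07 at 8 weeks in this comparison. Depth was not held equal in it. Regulatory cells had a median of 5397 UMIs against 2976 in conventional Cd4-gated cells at 16 weeks, and 5417 against 3109 at 8 weeks. Proliferating cells made up 8.07% against 5.04% at 16 weeks and 13.8% against 7.27% at 8 weeks. Without the proliferating cluster, the heat shock gap at 8 weeks was smaller.

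To set naive against effector cells, each cell was thinned to 1700 UMIs and scored by the UMIs of a naive list that included Lef1, Ccr7, Satb1 and Dapl1 against those of S100a4, S100a6, Lgals1, Lgals3, Anxa2 and Cxcr6. A cell with 2 or more UMIs of a list and more of it than of the other was gated as naive or effector, and the rest were called between. Such a gate is a range and not a cell type. Near its boundary lay 33.2% of the conventional Cd4-gated cells at 16 weeks and 32.2% at 8 weeks, which include all the between cells. Of the naive-gated cells, 3.09% at 16 weeks and 10.1% at 8 weeks lay near it, and of the effector-gated cells 3.67% and 6.01%. Naive-gated cells made up 48.6% of the conventional Cd4-gated cells at 16 weeks and 29.8% at 8 weeks. Effector-gated cells made up 20.5% at 16 weeks and 43.6% at 8 weeks.

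Most members were lower in effector-gated than in naive-gated cells of the same library. Among conventional Cd4-gated cells at 8 weeks, Jun had 266 CPM in effector-gated and 708 CPM in naive-gated cells, a log2 ratio of -1.41 (-1.62 to -1.20). Ppp1r15a had 103 CPM in effector-gated and 261 CPM in naive-gated cells, and Dnajb1 221 and 479 CPM. At 16 weeks the gap for Jun was -0.78, with 446 CPM in effector-gated and 765 CPM in naive-gated cells. Junb had 1104 CPM in effector-gated and 1092 CPM in naive-gated cells at 16 weeks, with an interval of the ratio that included 0, and Dusp1 had a ratio of -0.16 (-0.43 to 0.11). The heat shock sum had a ratio of -0.56 at 16 weeks and -0.89 at 8 weeks. The AP-1 ratio was -0.21 at 16 weeks and -0.73 at 8 weeks. By 0.5 or more, 4 of 10 members were lower at 16 weeks (Jun, Hspa1a, Hspa1b and Ppp1r15a), against 10.1% of 3325 genes, and 6 of 10 at 8 weeks, where Fos and Dnajb1 joined them, against 11.6% of 4408 genes. For all genes tested, the median of this comparison was 0.20 at 16 weeks and 0.21 at 8 weeks (0.27 and 0.24 among Cd8-gated cells), and relative to it the gaps of the sums were larger by that amount. The Itgb1 cluster, with 37.4% effector-gated and 14.5% naive-gated cells at 16 weeks and 58.3% and 10.6% at 8 weeks, ran the other way. Its AP-1 sum was 3960 CPM against 3054 CPM in the naive or stem-like cluster at 16 weeks, and 3032 against 2264 CPM at 8 weeks. Its heat shock sum was 3655 against 2739 CPM and 2552 against 1989 CPM. Jun was the exception, at 825 against 840 CPM and 666 against 712 CPM.

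Depth moved with the state. Among conventional Cd4-gated cells, effector-gated cells had a median of 4228 UMIs and naive-gated cells 2794 at 16 weeks, and 4741 and 2658 at 8 weeks. Proliferating cells moved with the state too: they made up 15.6% of effector-gated and 0.386% of naive-gated conventional Cd4-gated cells at 16 weeks. Without the proliferating cluster, an alternative chosen after seeing the data, the AP-1 sum in effector-gated over naive-gated cells was 0.092 at 16 weeks and -0.41 at 8 weeks. The heat shock sum was -0.17 at 16 weeks and -0.50 at 8 weeks. The AP-1 ratio at 16 weeks thus changed sign when these cells were left out. In Cd8-gated cells the AP-1 ratio was -0.74 at 16 weeks and -0.22 at 8 weeks, and -0.33 and 0.039 without that cluster. In the Cd8-gated cells 8 of the 9 members with 50 or more UMIs were lower by the fold at 16 weeks, against 11.1% of 2210 genes, and 3 of 9 at 8 weeks, against 9.96% of 2740 genes. At 16 weeks Hspa1b had 488 CPM in effector-gated and 1148 CPM in naive-gated cells, and Fos had 299 and 675 CPM.

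Because the 2 libraries held different shares of each state, the age ratio was also taken within states. In naive-gated conventional Cd4-gated cells it shrank to 0.19 (0.09 to 0.30) for the AP-1 sum and 0.14 (0.04 to 0.25) for the heat shock sum. Fos had 541 CPM at 16 weeks and 489 CPM at 8 weeks there, and Dnajb1 had 461 and 479 CPM. Dusp1 was the best counted exception, with 355 CPM at 16 weeks and 239 CPM at 8 weeks, a ratio of 0.57 (0.26 to 0.89). Of the 9 members with 50 or more UMIs it was the 1 past the fold, against 5.81% of 2873 genes, and Fosb (0.71) was under that minimum. The naive or stem-like cluster, which was not gated by lineage, had larger age ratios than this gate. They were 0.43 (0.36 to 0.50) for the AP-1 sum and 0.46 (0.39 to 0.53) for the heat shock sum, so the smaller ratios depended on the gate. In effector-gated conventional Cd4-gated cells the ratio was 0.71 (0.61 to 0.80) for AP-1 and 0.48 (0.36 to 0.59) for heat shock. There Junb had 1104 CPM in 16-week against 685 CPM in 8-week cells, and Fos had 433 CPM at 16 weeks and 249 CPM at 8 weeks. In the effector range 8 of 10 members passed the fold upwards, against 7.85% of 4687 genes.

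**Figure D2:**
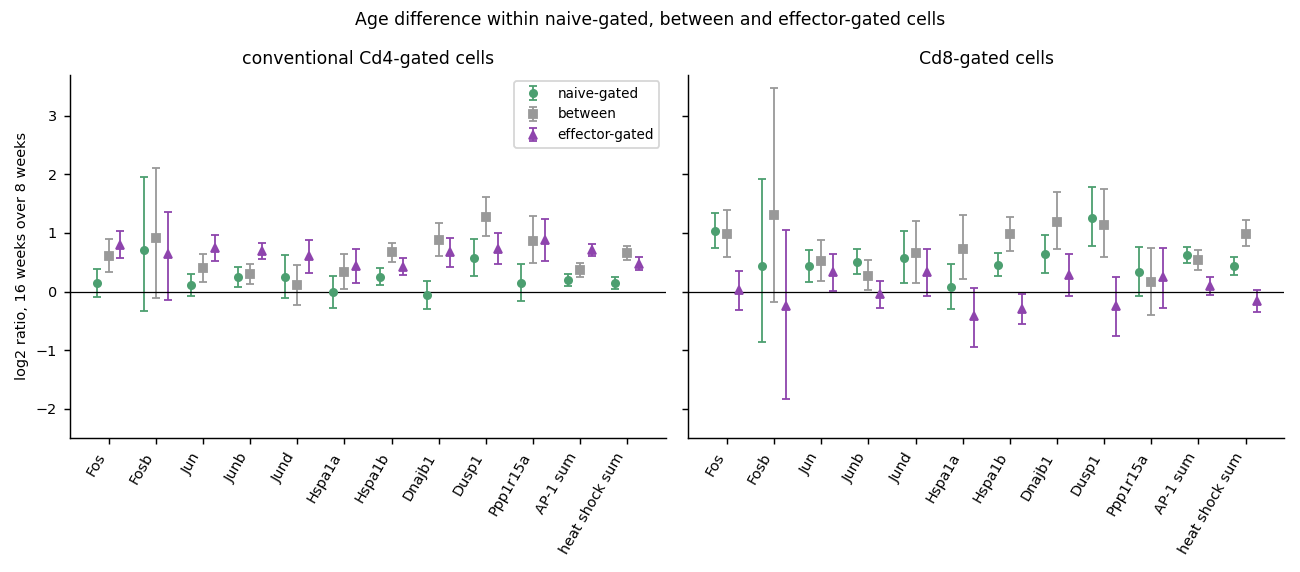
Log2 ratio of 16 over 8 weeks (y axis) for each gene and for the AP-1 and heat shock sums in naive-gated (green), between (grey) and effector-gated (purple) cells, for conventional Cd4-gated cells (left panel) and Cd8-gated cells (right panel); bars are exact intervals of 95% for counting error. In conventional Cd4-gated cells the naive-gated sums lie at 0.19 and 0.14 and the effector-gated sums at 0.71 and 0.48, whereas in Cd8-gated cells the effector-gated sums lie at 0.10 and -0.16.

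The Cd8-gated cells had the reverse arrangement. Their naive-gated cells had an age ratio of 0.62 (0.48 to 0.75) for AP-1 and 0.44 (0.29 to 0.59) for heat shock, with Fos at 675 CPM in 16-week against 329 CPM in 8-week cells. In the naive range Fos, Junb, Jund, Dnajb1 and Dusp1, 5 of the 9 members with 50 or more UMIs, passed the fold, against 5.26% of 2090 genes. Among effector-gated cells, of which there were 58 at 16 weeks and 103 at 8 weeks, the AP-1 ratio was 0.10 (-0.05 to 0.24) and the heat shock ratio -0.16 (-0.35 to 0.03). There 0 of the 9 members with 50 or more UMIs passed the fold upwards, against 6.49% of 2775 genes. Hspa1b had 488 CPM at 16 weeks and 599 CPM at 8 weeks in them. Whether the age ratio differs between states was not tested, since each state comes from the same 2 libraries.

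Single cells differed in most members by more than counting alone gives. In conventional Cd4-gated cells thinned to 1700 UMIs, a Fos UMI was present in 42.4% (38.2 to 46.7, exact binomial) at 16 weeks and 34.1% (30.1 to 38.3) at 8 weeks. The highest cell had 12 Fos UMIs at 16 weeks and 14 at 8 weeks. The 53 cells with the most Jun, 1 in 10, held 41.8% of its UMIs at 16 weeks and 51.2% at 8 weeks. The Fano factor, the variance over the mean, which is 1 for counting alone, was 2.63 for Fos at 16 weeks and 2.93 at 8 weeks, above 99.2% and 99.4% of detected genes. Junb (3.42 and 3.19) and Hspa1b (4.49 and 3.33) had higher Fano factors, whereas Jund stayed near counting, at 1.12 and 1.15. By the share of UMIs in the top 1 in 10 cells the order was the reverse. That share was 50% and 56.5% for Fos, 40.1% and 42.3% for Junb, and 38.8% and 40.0% for Hspa1b. Both measures shift with the mean count, which was lower for Fos, so they do not settle which gene spread wider. Jund had the lowest Fano factor of the 5 AP-1 genes in both libraries, with the sparse Fosb next to it at 1.13 and 1.39.

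An AP-1 UMI of any of the 5 genes was present in 88.6% of thinned conventional Cd4-gated cells at 16 weeks and 83.0% at 8 weeks. A heat shock UMI was present in 79.9% at 16 weeks and 74.5% at 8 weeks. Before thinning, the shares were 93.7% and 93.9% for AP-1 and 90.3% and 85.1% for heat shock. No class of these cells is known to lack these genes, so a background share from free RNA could not be set beside them. Thinning left out 23 shallower cells at 16 weeks and 44 at 8 weeks.

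AP-1 and heat shock UMIs were high in the same cells. Conventional Cd4-gated cells of 1 library, all thinned to the same depth, were ordered by their AP-1 UMIs and cut into 3 ranges of about equal size. Ties in AP-1 UMIs at the cuts were broken at random: the top range at 16 weeks held 6 to 33 AP-1 UMIs per cell and the bottom range 0 to 2, and at 8 weeks 4 to 30 and 0 to 1. At 16 weeks the heat shock sum was 1299 CPM in the bottom, 2839 CPM in the middle and 3755 CPM in the top range. At 8 weeks it was 882, 1447 and 2987 CPM. The top range over the bottom range gave a log2 ratio of 1.53 (1.36 to 1.70) at 16 weeks and 1.76 at 8 weeks. Hspa1b had 2353 CPM in the top range and 811 CPM in the bottom range at 16 weeks, and Dnajb1 had 844 and 269 CPM.

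**Figure D3:**
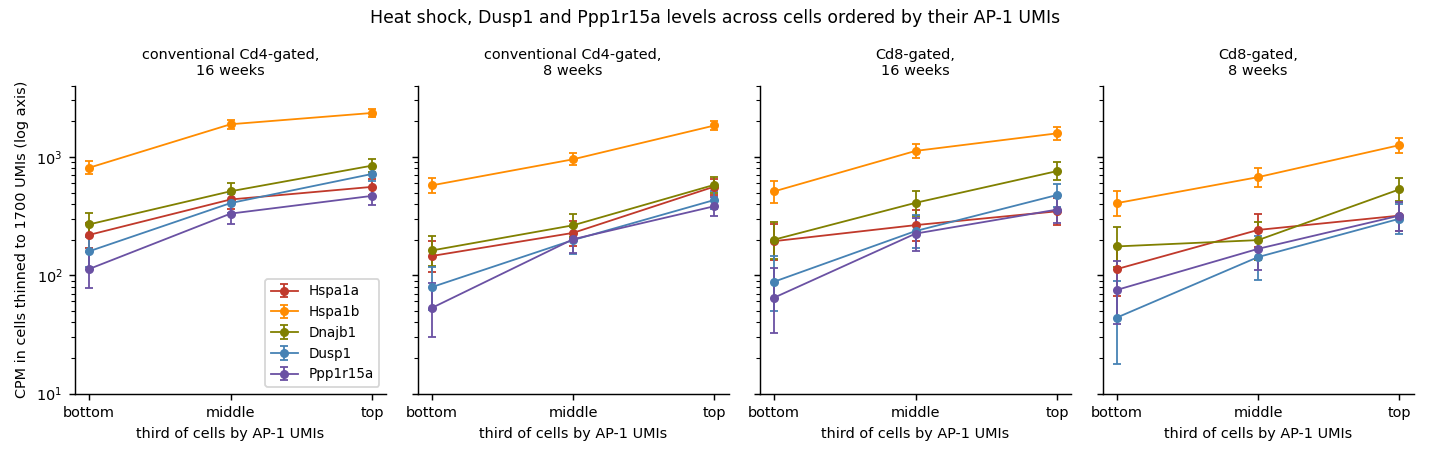
CPM of Hspa1a, Hspa1b, Dnajb1, Dusp1 and Ppp1r15a (y axis, log scale) in cells thinned to 1700 UMIs and split into 3 equal ranges by their AP-1 UMIs (x axis, bottom to top), for conventional Cd4-gated and Cd8-gated cells at 16 and 8 weeks; bars are exact Poisson intervals of 95%. All 5 lines climb from the bottom to the top range in each of the 4 panels.

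Levels of Dusp1 and Ppp1r15a were also highest in the cells with the most AP-1 UMIs. Dusp1 had 718 CPM in the top range and 160 CPM in the bottom range at 16 weeks, a ratio of 2.16 (1.71 to 2.65), and 433 and 79.3 CPM at 8 weeks, a ratio of 2.42. Ppp1r15a reached 2.04 at 16 weeks and 2.82 at 8 weeks. All 5 members that were not used for the ordering passed the fold, against 8.09% of 1433 genes at 16 weeks and 9.01% of 1531 genes at 8 weeks. In Cd8-gated cells the heat shock ratio was 1.57 (1.30 to 1.84) at 16 weeks and 1.60 (1.29 to 1.92) at 8 weeks, and again all 5 passed, against 8.08% and 7.65% of genes. Regulatory cells gave 1.28 at 16 weeks and 0.94 at 8 weeks, and ungated cells gave 1.39 and 1.49. In regulatory cells all 5 passed at 16 weeks, against 9.42% of genes, and at 8 weeks 3 of the 4 with 50 or more UMIs did, against 10.1% of genes, with Hspa1b under the fold at 0.46 (0.03 to 0.91). In ungated cells all 5 passed in both libraries, against 6.87% and 10.5% of genes.

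Mitochondrial share and state were close between the ranges at 16 weeks, while proliferating cells and depth were lower in the top range. At 16 weeks the median mitochondrial share was 2.88% in the top range and 2.92% in the bottom range by AP-1, and naive-gated cells made up 45.8% and 43.5%. Proliferating cells made up 1.13% of the top and 10.2% of the bottom range, and the median depth before thinning was 2761 and 3354 UMIs. At 8 weeks naive-gated cells made up 37.6% of the top and 24.2% of the bottom range. Within naive-gated cells alone the heat shock ratio between AP-1 ranges was 0.98 at 16 weeks and 1.12 at 8 weeks, and within effector-gated cells it was 1.86 at both ages. Without the proliferating cluster it was 1.39 at 16 weeks and 1.61 at 8 weeks. The part of depth in these ratios beyond the thinning was not tested.

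Cell counts gave the same picture. Of 533 thinned conventional Cd4-gated cells at 16 weeks, 93 were in the top range of both sums, where the product of the 2 shares gives 58.8, and 25 were in the top range for AP-1 but the bottom range for heat shock. Of 534 cells at 8 weeks, 103 were in both top ranges, against 59.3 by the product, and 28 were in the top for AP-1 and the bottom for heat shock. In Cd8-gated cells 48 cells at 16 weeks and 45 at 8 weeks were in both top ranges, where the products were 33.1 and 31.2. The overlap was partial: 14 of the 177 top-range AP-1 cells at 16 weeks had no heat shock UMI, and 27 cells had no UMI of either group, against 12.2 by the product.

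**Figure D4:**
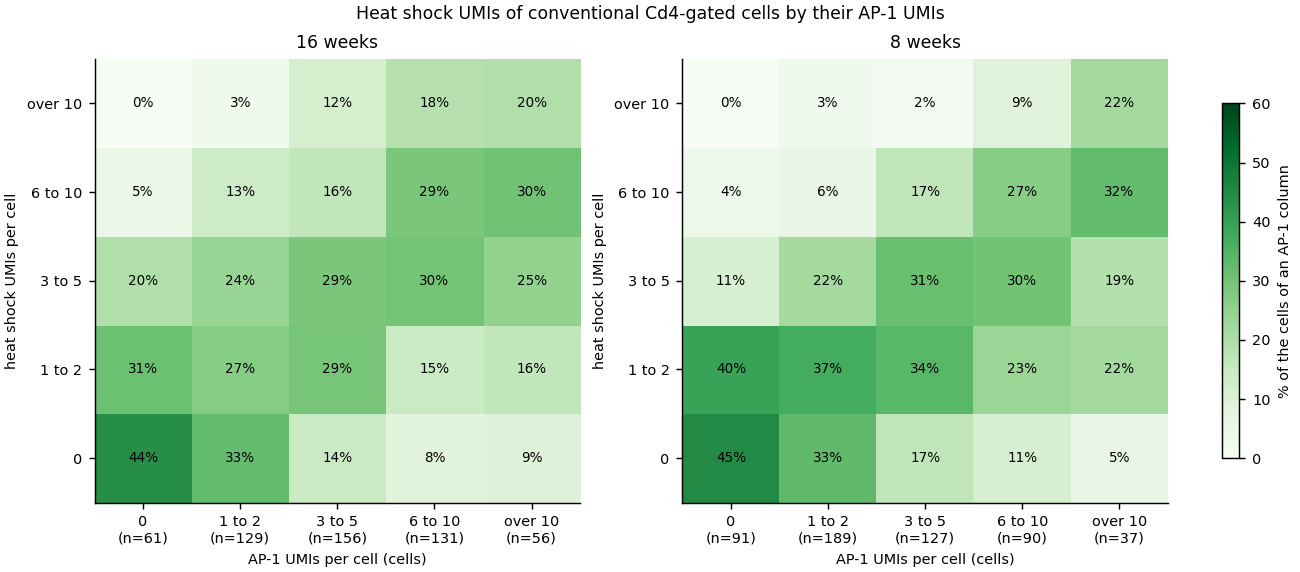
Share of conventional Cd4-gated cells in each bin of heat shock UMIs per cell (y axis), within each bin of AP-1 UMIs per cell (x axis, n cells), thinned to 1700 UMIs, at 16 weeks (left) and 8 weeks (right). Numbers in the boxes are rounded shares. Of cells with no AP-1 UMI, 44.3% at 16 weeks and 45.1% at 8 weeks had no heat shock UMI, against 8.93% and 5.41% of cells with over 10 AP-1 UMIs.

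Over cells, the Spearman correlation of the AP-1 sum with the heat shock sum was 0.43 at 16 weeks and 0.45 at 8 weeks in conventional Cd4-gated cells, and 0.38 and 0.36 in Cd8-gated cells. These coefficients are descriptions of cells that share a library and a fixed depth, and carry no p. Among single genes the counts were sparse and most pairs were weak: of 45 pairs, 14 at 16 weeks and 21 at 8 weeks reached 0.2. Hspa1a with Hspa1b gave the highest value, 0.54 at 16 weeks and 0.48 at 8 weeks, and these are the copies between which UMIs can be shared. Of pairs across the groups, Jun with Hspa1b was highest, at 0.30 and 0.31. Jund gave at most 0.17 with any other member at 16 weeks and 0.18 at 8 weeks, and Fosb was too sparse for its low values to be read.

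**Figure D5:**
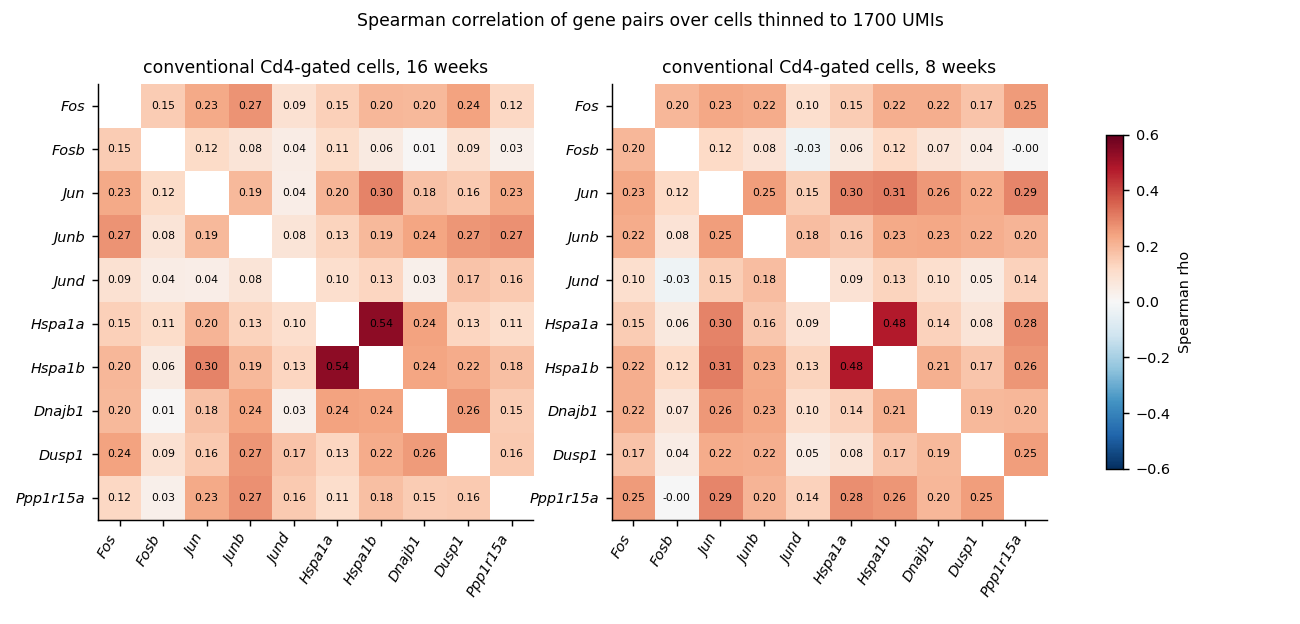
Spearman rho of each pair of members over conventional Cd4-gated cells thinned to 1700 UMIs, at 16 weeks (left) and 8 weeks (right), on a colour scale that runs between -0.6 and 0.6. Hspa1a with Hspa1b stands out at 0.54 and 0.48, and the other pairs lie between -0.03 (Fosb with Jund, at 8 weeks) and 0.31.

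In conventional Cd4-gated cells, other members took 5 of the first 8 places among all genes by likeness to the AP-1 sum. Of 3360 genes seen in 5% or more of the conventional Cd4-gated cells of each library, ranked by the lower rho of the 2 libraries with the AP-1 sum, Hspa1b was number 1 (0.35 at 16 weeks, 0.36 at 8 weeks) and Ppp1r15a number 2. Dnajb1 was number 5, Dusp1 number 6 and Hspa1a number 8. The median gene was at -0.03, and 11 genes in all reached 0.2 in both libraries. The 4 non-members highest in that order were Ubb (0.31 and 0.34), which encodes stress-inducible polyubiquitin, and Klf2 (0.29 and 0.32), Klf6 (0.27 and 0.27) and Ier2 (0.23 and 0.32), which are early response genes. By likeness to the heat shock sum, Jun was number 1 of 3361 genes (0.33 and 0.39), followed by Ubb, Junb and Fos. Rps27, a ribosomal protein gene, was also among the 5 non-members highest in that order (0.20 and 0.21).

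The order was taken in Cd8-gated cells in the same way. Of 3094 genes, Dusp1 was number 1 by likeness to the AP-1 sum (0.29 at 16 weeks, 0.29 at 8 weeks), Hspa1b number 3, Dnajb1 number 4 and Ppp1r15a number 5, but Hspa1a was number 21 (0.12 and 0.19). The 5 non-members highest there were Zfp36 (0.27 and 0.38), Ubb, Ier2, Tagap (0.26 and 0.22) and Tsc22d3 (0.17 and 0.22). Klf2 was number 196 there (0.28 and 0.05). By likeness to the heat shock sum, Jun was number 2 of 3095 genes, Fos number 3, Ppp1r15a number 4 and Junb number 5. Dusp1 was number 83 (0.20 and 0.07) and Jund number 261 (0.20 and 0.04) in that order, and Ltb (0.17 and 0.21) was among its leading non-members.

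The rest of the 2 pathways was read from lists of related genes. Of 30 other immediate early genes, 27 had 50 or more UMIs in conventional Cd4-gated cells, and 6 were higher at 16 weeks by the fold, against 5.77% of all genes tested, with none lower and a median of 0.36. The 3 largest were Nr4a3, an orphan nuclear receptor gene induced by TCR signals (19.7 CPM at 16 weeks, 6.77 CPM at 8 weeks, log2 ratio 1.52), Myc (76.9 and 37.6 CPM, 1.03) and Tnfaip3, which encodes the NF-kappa B inhibitor A20 (87.5 and 48.9 CPM, 0.84). Of 28 other heat shock and chaperone genes, 26 were counted, and 4 passed the fold upwards, against the same 5.77%, and 0 downwards, with a median of 0.23. Bag3, a classical HSF1 target, had 79.2 CPM at 16 weeks and 51.2 CPM at 8 weeks (0.63), Dnajb9 22.0 and 10.9 CPM (1.00), and Hspb1 14.7 and 9.03 CPM (0.69, -0.11 to 1.53).

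Neighbouring pathways had medians nearer to 0. Of 12 genes of the integrated stress and unfolded protein response, 7 were counted and 2 passed the fold upwards, against 5.77% of all genes, with a median of 0.08. Ddit3 had 21.5 CPM at 16 weeks and 13.9 CPM at 8 weeks (0.62, -0.02 to 1.29), Gadd45a 16.5 and 11.3 CPM (0.54), and Ddit4 153.9 and 186.7 CPM (-0.28). Of 20 MAP kinase phosphatase and AP-1 kinase genes, 17 were counted, of which 2 were higher and 1 lower by the fold, against 5.77% and 7.38% of all genes, with a median of -0.03. The 1 lower gene is a share near the background. Map2k7 (0.83) and Map2k4 (0.66), the kinases upstream of JNK, were the higher ones and Mapk3 (-0.61) was the lower one, each on 84 UMIs or fewer in both libraries together. Of 10 other AP-1 genes and relatives only Nfe2l2 (0.25) and Batf (-0.19) reached 50 UMIs. Batf, the AP-1 partner of IRF4 in effector T cells, had 118.6 CPM at 16 weeks and 135.1 CPM at 8 weeks.

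The same lists were counted between the AP-1 ranges, where 8.09% of all genes tested at 16 weeks and 9.01% at 8 weeks passed the fold upwards. Other immediate early genes passed the fold upwards in the top over the bottom range in 16 of the 16 counted at 16 weeks and 13 of 14 at 8 weeks, with medians of 1.26 and 1.66. Other heat shock and chaperone genes did so in 6 of 17 at 16 weeks and 3 of 17 at 8 weeks, with medians of 0.33 and 0.18. Whether the 2 lists differ in this was not tested.

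Clone size, from the TCR libraries, gave a last split. In conventional Cd4-gated cells at 8 weeks, 78 cells shared both TCR chains with another T cell of the library and 367 did not, and Fos had 131 CPM in the expanded and 339 CPM in the single cells (log2 ratio -1.36). Hspa1b had 537 CPM in expanded and 935 CPM in single cells. At 16 weeks, with 33 expanded and 389 single cells, the ratios were -0.75 for Fos and -0.80 for Hspa1b. The ratio of Dusp1 was -0.04 (-0.45 to 0.33) at 16 weeks and -0.56 (-0.95 to -0.20) at 8 weeks, and the difference between these was not tested. State and depth were not held equal in this split.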

How the data were processed

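For 1 RNA library per age the deposited values are UMI counts by gene and barcode, in matrices that carry software version 3.0.1 per the file headers. Alongside them are the matched libraries' TCR contig tables with read and UMI counts. Per the submitters' processing notes the build was mm10, and Seurat is listed without a role. The aligner, the counting rule and whether strand was used are not stated. Barcodes with fewer than 500 genes or over 10% mitochondrial UMIs were left out. Cells were clustered with scanpy 1.11.5 and leidenalg 0.10.2 (2000 variable genes, 30 components, 15 neighbours, resolution 1, a fixed seed) without the members and the related early response and heat shock lists, and clusters were named from marker lists. Cells of the acinar and B cell clusters were left out, and so were cells with both Cd4 and Cd8 UMIs from the class comparisons. No doublet caller was run; cells with 2 or more productive beta chains, 235 of the 1644 with one at 16 weeks and 202 of 1581 at 8 weeks, were left out as an alternative.

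UMIs were summed per class and library, which held 8183747 UMIs at 16 weeks and 8659371 at 8 weeks. Levels are CPM with exact Poisson intervals of 95%, shares have exact binomial intervals, and ratios have exact conditional intervals. They cover counting error only. With 1 library per age there is no test, so a gene was counted as past the fold at an absolute log2 ratio of 0.5 or more, with 50 or more UMIs in the 2 groups together. For values per cell, each cell was thinned to 1700 UMIs (seed 1) and shallower cells were left out. Members and lists were chosen with earlier results of these data known. Beyond the members, the text names the 3 genes of each related list with the largest log2 ratio of 16 over 8 weeks in size, among those with 50 or more UMIs in conventional Cd4-gated cells, and the 5 non-members most alike to each sum. A gene that this rule names and a marker of the naive list are not reported here. The scripts were tested on simulated data. Promoters came from RefSeq on GRCm38.p6 and gene positions from GENCODE on mm10.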

Additional observations from a re-analysis of the deposited data

Results flagged for a closer look

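The age ratio of Hspa1b ran in opposite directions in different cells. In effector-gated Cd8-gated cells the log2 ratio of 16 over 8 weeks was -0.29 (-0.55 to -0.05). In naive-gated Cd8-gated cells it was 0.45 (0.26 to 0.65), and in effector-gated conventional Cd4-gated cells it was 0.42 (0.28 to 0.56). Both differences were not tested, since each ratio rests on the same 2 libraries.

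Members were also counted in barcodes that the filter left out. Those under 500 genes had an AP-1 sum of 657 CPM (214 UMIs) and a heat shock sum of 753 CPM (245 UMIs) at 16 weeks, and 733 CPM (134 UMIs) and 678 CPM (124 UMIs) at 8 weeks. Gm42418 alone made up 57.0% of their UMIs at 16 weeks and 44.8% at 8 weeks, so these CPM are not comparable with those of the kept cells. Averaged over single barcodes, the AP-1 sum was 1954 CPM and the heat shock sum 2169 CPM at 16 weeks, and 1391 and 1182 CPM at 8 weeks. Those over 10% mitochondrial UMIs had an AP-1 sum of 3163 CPM (98 UMIs) and a heat shock sum of 2033 CPM (63 UMIs) at 16 weeks, and 1819 CPM (111 UMIs) and 1426 CPM (87 UMIs) at 8 weeks. They are given because no comparison uses these barcodes. There are no control samples to set beside them, and whether the UMIs come from cells or from free RNA was not tested.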

How the results depend on the processing

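No paired analysis was possible because each age has 1 RNA library, so no replicate could be left out or blocked either. Of the alternatives to the main comparisons, 160 gave values within the counting interval or within 1.5 times the count, 117 moved and 3 changed sign; of those to single genes, 207 stayed, 27 moved and 6 changed sign. The cause of these moves was not tested. State taken from clusters could not be run for Cd8-gated cells. The values without the proliferating cluster, those of thinned cells and the correlations within states or at 1000 UMIs were chosen after seeing the data. Depth limits Fosb most, with 84 UMIs at 16 weeks and 63 UMIs at 8 weeks in conventional Cd4-gated cells. With Fos and Jun alone as the AP-1 sum, the heat shock ratio between AP-1 ranges was 1.21 in conventional Cd4-gated cells at 16 weeks and 1.48 in conventional Cd4-gated cells at 8 weeks. With the AP-1 sum taken without Jund, the heat shock ratio between AP-1 ranges was 1.29 in conventional Cd4-gated cells at 16 weeks. With Dnajb1 alone as the heat shock measure, the heat shock ratio between AP-1 ranges was 1.91 in Cd8-gated cells at 16 weeks. In cells thinned to 1700 UMIs, the log2 ratio of 16 over 8 weeks was 0.41 for AP-1 in conventional Cd4-gated cells. The Cd8-gated over conventional Cd4-gated ratio was -0.55 for heat shock at 16 weeks, and -0.30 for AP-1 at 8 weeks. The regulatory over conventional Cd4-gated ratio was 0.20 for AP-1 at 8 weeks. The effector-gated over naive-gated ratio in conventional Cd4-gated cells was -0.42 for heat shock at 16 weeks, and -0.51 for AP-1 and -0.61 for heat shock at 8 weeks. The effector-gated over naive-gated ratio in Cd8-gated cells was -0.39 for AP-1 and -0.57 for heat shock at 16 weeks, and -0.015 for AP-1 at 8 weeks. With ratios centred on the median of all genes, the log2 ratio of 16 over 8 weeks was 0.61 for AP-1 in conventional Cd4-gated cells. The regulatory over conventional Cd4-gated ratio was 0.19 for AP-1 and -0.33 for heat shock at 16 weeks, and 0.30 for AP-1 at 8 weeks. The effector-gated over naive-gated ratio in conventional Cd4-gated cells was -0.42 for AP-1 and -0.77 for heat shock at 16 weeks, and -0.95 for AP-1 and -1.11 for heat shock at 8 weeks. The effector-gated over naive-gated ratio in Cd8-gated cells was -1.01 for AP-1 and -1.32 for heat shock at 16 weeks, and -0.46 for AP-1 and -0.69 for heat shock at 8 weeks. With each cell given equal weight, the log2 ratio of 16 over 8 weeks was 0.41 for AP-1 in conventional Cd4-gated cells, and 0.63 for AP-1 in Cd8-gated cells. The Cd8-gated over conventional Cd4-gated ratio was -0.28 for AP-1 and -0.44 for heat shock at 8 weeks. Here the regulatory over conventional Cd4-gated ratio was 0.28 for AP-1 at 8 weeks. Here the effector-gated over naive-gated ratio in conventional Cd4-gated cells was -0.084 for AP-1 and -0.31 for heat shock at 16 weeks, and -0.45 for AP-1 and -0.54 for heat shock at 8 weeks. Here the effector-gated over naive-gated ratio in Cd8-gated cells was -0.41 for AP-1 and -0.56 for heat shock at 16 weeks, and -0.062 for AP-1 and -0.26 for heat shock at 8 weeks. With lineages taken from clusters, the log2 ratio of 16 over 8 weeks was 0.49 for AP-1 in conventional Cd4-gated cells. Here the Cd8-gated over conventional Cd4-gated ratio was -0.29 for AP-1 and -0.73 for heat shock at 16 weeks, and -0.34 for AP-1 and -0.63 for heat shock at 8 weeks. Here the regulatory over conventional Cd4-gated ratio was 0.15 for AP-1 and -0.40 for heat shock at 16 weeks, and 0.26 for AP-1 at 8 weeks. With a minimum of 1 UMI, genes past the fold numbered 2196 higher at 16 weeks in conventional Cd4-gated cells, 2577 lower at 16 weeks in conventional Cd4-gated cells, 2283 higher at 16 weeks in Cd8-gated cells and 2698 lower at 16 weeks in Cd8-gated cells. With a minimum of 200 UMIs, genes past the fold numbered 57 higher at 16 weeks in conventional Cd4-gated cells, 120 lower at 16 weeks in conventional Cd4-gated cells, 29 higher at 16 weeks in Cd8-gated cells and 71 lower at 16 weeks in Cd8-gated cells. With states taken from named clusters, the effector state was the follicular helper cluster alone and the naive state the naive or stem-like cluster. No other cluster bore an effector name, and the unnamed Itgb1 cluster took no part. In conventional Cd4-gated cells the ratio of the former over the latter cluster was -0.43 for AP-1 and -0.43 for heat shock at 16 weeks. At 8 weeks it was -0.92 for AP-1 and -1.02 for heat shock. In cells thinned to 1000 UMIs, the heat shock ratio between AP-1 ranges was 1.43 in conventional Cd4-gated cells at 8 weeks and 1.28 in Cd8-gated cells at 16 weeks. The AP-1 to heat shock rho was 0.37 in conventional Cd4-gated cells at 8 weeks. The share of conventional Cd4-gated cells with a UMI was 80.2% at 16 weeks for AP-1, 70.1% at 16 weeks for heat shock, 71% at 8 weeks for AP-1 and 61.2% at 8 weeks for heat shock. Between the 1 in 10 cells with the most and the 1 in 10 with the fewest AP-1 UMIs, the heat shock ratio between AP-1 ranges was 2.12 in conventional Cd4-gated cells at 16 weeks, 2.29 in conventional Cd4-gated cells at 8 weeks and 2.10 in Cd8-gated cells at 16 weeks. With mitochondrial genes, ribosomal genes and Gm42418 left out of the totals, the log2 ratio of 16 over 8 weeks was 0.61 for AP-1 in conventional Cd4-gated cells, and 0.63 for AP-1 in Cd8-gated cells. Under this setting, the regulatory over conventional Cd4-gated ratio was 0.18 for AP-1 and -0.35 for heat shock at 16 weeks, and 0.26 for AP-1 and -0.38 for heat shock at 8 weeks. Here the effector-gated over naive-gated ratio in conventional Cd4-gated cells was -0.44 for AP-1 and -0.78 for heat shock at 16 weeks, and -0.93 for AP-1 and -1.09 for heat shock at 8 weeks. Here the effector-gated over naive-gated ratio in Cd8-gated cells was -1.004 for AP-1 and -1.32 for heat shock at 16 weeks, and -0.47 for AP-1 and -0.70 for heat shock at 8 weeks. Without thinning, the share of conventional Cd4-gated cells with a UMI was 93.7% at 16 weeks for AP-1, 90.3% at 16 weeks for heat shock, 93.9% at 8 weeks for AP-1 and 85.1% at 8 weeks for heat shock. In unthinned cells scaled to 10000, the AP-1 to heat shock rho was 0.46 in Cd8-gated cells at 8 weeks. Within effector-gated cells, the log2 ratio of 16 over 8 weeks was 0.71 for AP-1 and 0.48 for heat shock in conventional Cd4-gated cells, and 0.097 for AP-1, -0.16 for heat shock, -0.049 for Junb, -0.42 for Hspa1a, -0.29 for Hspa1b and -0.24 for Dusp1 in Cd8-gated cells. The heat shock ratio between AP-1 ranges was 1.86 in conventional Cd4-gated cells at 16 weeks. The AP-1 to heat shock rho was 0.53 in conventional Cd4-gated cells at 16 weeks. Within naive-gated cells, the log2 ratio of 16 over 8 weeks was 0.19 for AP-1, 0.14 for heat shock, -0.0098 for Hspa1a and -0.056 for Dnajb1 in conventional Cd4-gated cells, and 0.44 for heat shock in Cd8-gated cells. The heat shock ratio between AP-1 ranges was 0.98 in conventional Cd4-gated cells at 16 weeks and 1.12 in conventional Cd4-gated cells at 8 weeks. Here the AP-1 to heat shock rho was 0.31 in conventional Cd4-gated cells at 16 weeks and 0.38 in conventional Cd4-gated cells at 8 weeks. Without cells with 2 or more productive beta chains, the regulatory over conventional Cd4-gated ratio was 0.15 for AP-1 and -0.35 for heat shock at 16 weeks, and 0.28 for AP-1 at 8 weeks. Under this setting, the effector-gated over naive-gated ratio in conventional Cd4-gated cells was -0.47 for AP-1 and -0.81 for heat shock at 16 weeks. Under this setting, the effector-gated over naive-gated ratio in Cd8-gated cells was -0.90 for AP-1 at 16 weeks. Without the proliferating cluster, the log2 ratio of 16 over 8 weeks was 0.48 for AP-1 in conventional Cd4-gated cells. Here the Cd8-gated over conventional Cd4-gated ratio was -0.19 for AP-1 and -0.45 for heat shock at 8 weeks. Under this setting, the regulatory over conventional Cd4-gated ratio was -0.18 for heat shock at 8 weeks. Under this setting, the effector-gated over naive-gated ratio in conventional Cd4-gated cells was 0.092 for AP-1 and -0.17 for heat shock at 16 weeks, and -0.41 for AP-1 and -0.50 for heat shock at 8 weeks. Under this setting, the effector-gated over naive-gated ratio in Cd8-gated cells was -0.33 for AP-1 and -0.70 for heat shock at 16 weeks, and 0.039 for AP-1 and -0.14 for heat shock at 8 weeks. Here the heat shock ratio between AP-1 ranges was 1.22 in Cd8-gated cells at 16 weeks.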
